A study of Mus musculus with 8 samples.

Results

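The genes described here make, break down, bind and cross-link hyaluronan. They are the synthase genes Has1, Has2 and Has3, the hyaluronidase genes Hyal1 and Hyal2, the receptor gene Cd44 and Tnfaip6. Members were all probe sets that the platform annotation maps to one of these 7 symbols alone, which gave 10 of the 45037 analysed probe sets, for 6 of the 7 genes and of the 18193 genes represented on the array. Has2 has 2 of them, Cd44 has 4, and Has1, Has3, Hyal2 and Tnfaip6 have 1 each. Both probe sets of Hyal1 are shared with a second symbol, so Hyal1 has no value here.

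Expression was measured with a single-colour Affymetrix mouse array in 4 epithelial lines, with 1 array per line and condition. Stimulated cells of EpH4, mProx, MCT and NMuMG received recombinant TGF-β1 at 3 ng/mL together with EGF at 3 ng/mL for 24 h, and resting cells of the same lines received neither factor. All cells of both groups had spent 24 h in medium with insulin and transferrin beforehand. The kidney tubule gave mProx and MCT, and the mammary gland gave NMuMG and EpH4. EpH4 carries a label of resistance to epithelial-mesenchymal transition (EMT), in which epithelial cells take on fibroblast-like features, and the other 3 lines carry no such label.

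Hyaluronan is a long unsulfated polysaccharide that synthases in the plasma membrane spin out directly into the pericellular space. It is assembled from UDP-glucuronic acid and UDP-N-acetylglucosamine, cut by hyaluronidases at the cell surface and in lysosomes, and read by receptors of which Cd44 is the best known. In epithelial cells undergoing EMT, TGF-β and EGF are known inducers of hyaluronan synthesis, and Cd44 is known for its splice variants, which differ between epithelial and mesenchymal cells.

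Levels below are log2 of the deposited signal plus an offset of 10.6, quantile-normalized over the 8 arrays, and changes are the stimulated minus the resting level of the same line. A probe set is called dim on an array where it lay under 5.27, the filter level for tests. Of the 10 member probe sets 6 had a mean level at or above it, namely both of Has2, 3 of the 4 of Cd44 and that of Hyal2. The members were chosen with these levels and changes in view, so they are described without a test. Since a line has 1 array per condition, the spread between cultures of a line is not known, and the order of lines whose levels lie close together cannot be told. As a measure of scatter, the changes of all 23253 probe sets with 1 symbol at or above the filter scattered with an SD of 0.50 in mProx, MCT and NMuMG alike and 0.37 in EpH4. In these bulk samples fewer cells expressing a gene and less RNA per cell cannot be told apart.

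**Figure D1:**
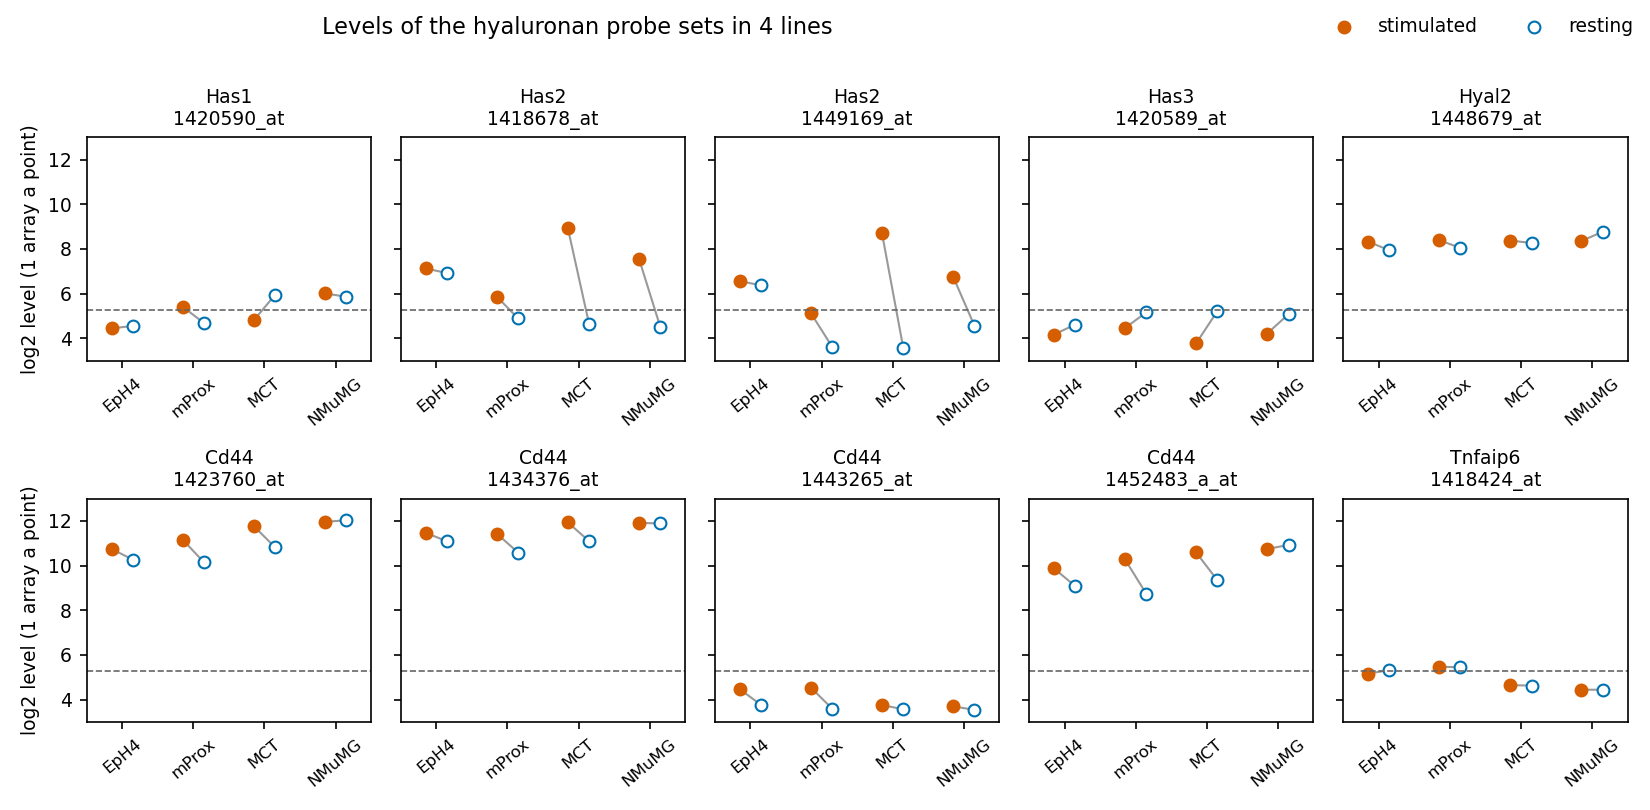
Log2 level of each of the 10 member probe sets (panels) in the 4 lines (x axis), with the stimulated array as a filled point and the resting array as an open point to its right; the dashed line is the filter level of 5.27. Has2 in MCT stood at 8.92 stimulated and 4.61 resting, while in EpH4 both arrays lay near 7.

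Has2, the gene of the synthase that makes most hyaluronan in many mesenchymal cells, had the largest changes of any member in MCT and NMuMG. Probe set 1418678_at had deposited signals of 129.5 stimulated and 136.8 resting in EpH4, and of 49.5 and 22.1 in mProx. In MCT it had 399.1 stimulated and 13.1 resting, and in NMuMG 155.6 and 10.3. The 3 lines not marked as resistant were thus dim at rest and higher after stimulation, whereas EpH4 was already above them at rest and differed little between its arrays.

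On the normalized scale this Has2 probe set was higher by 4.31 in MCT (19.9-fold), 3.06 in NMuMG (8.33-fold), 0.98 in mProx (1.97-fold) and 0.21 in EpH4. Among the 23253 probe sets, from the highest change down, it stood at rank 6 in MCT, 6 in NMuMG, 693 in mProx and 4678 in EpH4. Because the resting values of mProx, MCT and NMuMG were dim, these folds and ranks are not exact, and with other offsets and scalings the mProx change ran from 0.43 to 1.29. Set against the filter level in place of the dim resting value, the stimulated array was 12.6-fold above it in MCT and 4.91-fold in NMuMG. In EpH4 the direction depended on the scale, since the deposited signal was the lower one after stimulation and the difference was -0.07 without quantile normalization.

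The second Has2 probe set, 1449169_at, showed the same pattern. Its signals were 81.2 stimulated and 87.3 resting in EpH4, 25.2 and 1.9 in mProx, 339.4 and 1.0 in MCT, and 90.0 and 11.1 in NMuMG. Its log2 changes were 0.18, 1.51, 5.15 and 2.20 in the same order of lines, and in mProx both arrays were dim. Over the 8 arrays the levels of both Has2 probe sets correlated at r = 0.973, a description over 4 lines with 2 arrays each. With dim resting values the sizes of these changes depended on the offset. With an offset of 64 the changes on 1418678_at and 1449169_at were 2.79 and 2.85 in MCT, 0.43 and 0.43 in mProx, and 1.67 and 1.07 in NMuMG.

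EpH4 had the highest Has2 level among resting lines, and among stimulated ones it lay below MCT and above mProx. Among stimulated arrays both Has2 probe sets ran from MCT through NMuMG and EpH4 down to mProx, with 1418678_at at 8.92, 7.56, 7.12 and 5.86. On 1449169_at NMuMG was at 6.76 and EpH4 at 6.55, so with 1 array each the order of these lines cannot be told. Among resting arrays EpH4 led at 6.92, followed by mProx at 4.89, MCT at 4.61 and NMuMG at 4.50, and the last 3 were dim, so their order is not known. The second probe set gave another order for these 3.

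Has3, whose enzyme makes hyaluronan chains in many epithelia, was lower after stimulation in 4 of 4 lines, but dim on 8 of 8 arrays. Its deposited signals were 6.8 stimulated and 16.6 resting in EpH4, 11.9 and 29.2 in mProx, 2.6 and 26.1 in MCT, and 8.2 and 19.6 in NMuMG. In each line the stimulated signal was the lower one, and the stimulated signals of 2.6 to 11.9 lay below the resting signals of 16.6 to 29.2. The log2 changes were -0.45, -0.71, -1.45 and -0.87 in these lines, and their sizes are not exact at such levels. With 1 array each, a common direction on a probe set this dim is a description and cannot be told from scatter.

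Has1, the third synthase gene, had no common direction. Its signals were 10.0 stimulated and 15.3 resting in EpH4, 33.2 and 17.5 in mProx, 15.0 and 51.1 in MCT, and 52.6 and 40.2 in NMuMG. It was higher in 2 lines and lower in 2, by up to -1.14 on the log2 scale in MCT, and 4 of its 8 arrays were dim. In MCT, where Has2 was higher by 4.31, the Has1 and Has3 probe sets had changes of -1.14 and -1.45.

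Counted at 2-fold, the 6 member probe sets at or above the filter held 3 higher in MCT, 3 in mProx, 2 in NMuMG and 0 in EpH4, and 0 lower in any of the 4 lines. In MCT they were both Has2 probe sets and Cd44 1452483_a_at, and in NMuMG both were Has2. In mProx they were Cd44 1423760_at and 1452483_a_at and Has2 1449169_at. That Has2 probe set was dim on both mProx arrays, and Has2 1418678_at was at 0.98 there. Over all 23253 probe sets the shares at least 2-fold higher were 2.81% in MCT, 2.83% in mProx, 3.05% in NMuMG and 1.35% in EpH4, and the shares at least 2-fold lower were 2.72%, 2.48%, 2.58% and 1.36% in this order of lines. Nothing is read from these counts, because the members were chosen on this contrast. Of the 4 probe sets under the filter, Has1 and Has3 in MCT were past 2-fold, both lower.

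**Figure D2:**
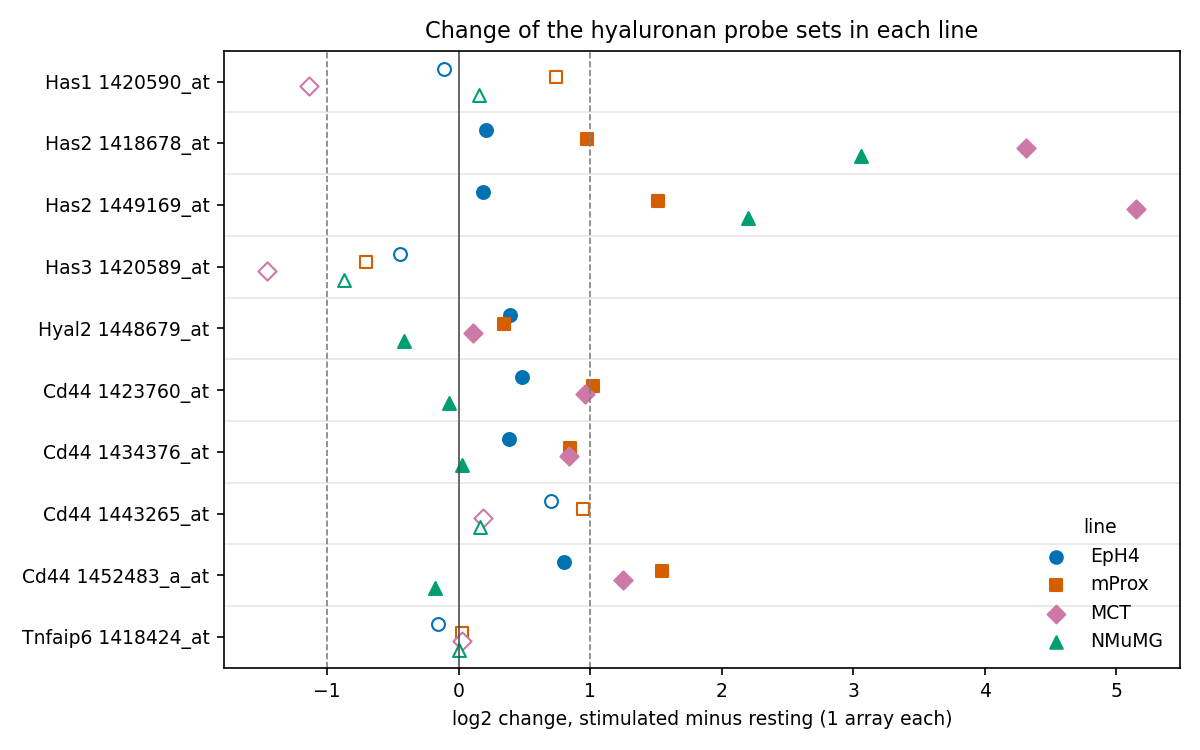
Log2 change (stimulated minus resting, x axis) of the 10 member probe sets (rows) in each of the 4 lines; filled symbols are probe sets at or above the filter level, open ones lie under it, and dashed lines mark 2-fold. Has2 stands at 4.31 and 5.15 in MCT, and NMuMG lies near 0 on the bright Cd44 rows. The Has3 row, dim on 8 of 8 arrays, lies left of 0 in 4 of 4 lines, and the equally dim Cd44 1443265_at row right of it.

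Cd44, encoding the main hyaluronan receptor, was bright on 3 of its 4 probe sets in all 4 lines, and higher after stimulation in mProx and MCT on each of them, while the smaller changes of EpH4 and NMuMG depended on the scale. Probe set 1434376_at had signals of 3003.2 stimulated and 2817.8 resting in EpH4, 2891.2 and 1703.2 in mProx, 3498.1 and 2157.3 in MCT, and 3979.6 and 3046.9 in NMuMG. Its log2 changes were 0.38, 0.84, 0.84 and 0.02 in these lines. The kidney lines therefore had the larger changes and NMuMG, the line with the highest resting level, almost none on this scale.

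On both other bright Cd44 probe sets the kidney lines again had the largest changes. For 1423760_at the changes were 1.02 in mProx, 0.96 in MCT, 0.48 in EpH4 and -0.07 in NMuMG, and for 1452483_a_at they were 1.54, 1.25, 0.80 and -0.18 in this order. The last probe set had signals of 1028.2 stimulated and 717.8 resting in EpH4, 1283.8 and 503.5 in mProx, 1311.9 and 645.5 in MCT, and 1620.8 and 1419.4 in NMuMG. Its change exceeded that of 1434376_at by 0.42 in EpH4, 0.70 in mProx and 0.41 in MCT and fell short of it by 0.20 in NMuMG. Which Cd44 transcripts each probe set covers was not examined. The fourth probe set, 1443265_at, was dim on 8 of 8 arrays, with signals between 0.7 and 13.2.

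For the mammary lines the size or sign of the Cd44 change depended on the scale. In NMuMG the deposited signals were higher after stimulation on all 3 bright probe sets, with ratios of 1.21, 1.31 and 1.14 for 1423760_at, 1434376_at and 1452483_a_at. Without quantile normalization the median of all 23253 probe sets was itself shifted by 0.34 between the NMuMG arrays, against 0.05 with it, and on that scale 1423760_at differed by 0.28, 1434376_at by 0.38 and 1452483_a_at by 0.19. In EpH4 the same 3 probe sets differed by 0.19, 0.09 and 0.51 without it, with a median shift of -0.29, so that EpH4 lay below NMuMG on the first 2. In mProx they differed by 0.91, 0.76 and 1.33, and in MCT by 0.81, 0.69 and 1.01.

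Across lines, the normalized levels of Cd44 lay closer together on the stimulated than on the resting arrays. The distance from the lowest to the highest line was 0.50 stimulated and 1.30 resting for 1434376_at. It was 1.22 and 1.89 for 1423760_at, and 0.87 and 2.20 for 1452483_a_at. The sizes of these distances depend on the scale. For 1423760_at the deposited signals ran from 1878.8 to 4145.1 stimulated and from 1277.8 to 3418.5 resting, a smaller contrast. On each of these 3 probe sets mProx was the lowest resting line and NMuMG the highest.

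Hyal2, encoding a hyaluronidase anchored at the cell surface, was measured well above the filter on every array and differed little. Its signals were 335.5 stimulated and 309.7 resting in EpH4, 354.8 and 308.0 in mProx, 268.1 and 302.4 in MCT, and 276.7 and 291.7 in NMuMG. The log2 changes were 0.39, 0.35, 0.11 and -0.41, and without quantile normalization they were 0.11, 0.20, -0.17 and -0.07. The spread between lines also depended on the scale. On the normalized scale the stimulated levels lay within 0.06 of each other and the resting levels within 0.83 with NMuMG the highest, whereas the deposited signals ran from 268.1 to 354.8 stimulated and from 291.7 to 309.7 resting with NMuMG the lowest resting line.

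Tnfaip6 encodes TSG-6, a secreted protein that transfers heavy chains of inter-alpha-inhibitor onto hyaluronan and so cross-links it. Its probe set was dim on 5 of 8 arrays, with signals of 23.8 stimulated and 35.5 resting in EpH4, 35.1 and 38.1 in mProx, 12.6 and 13.3 in MCT, and 11.6 and 9.5 in NMuMG. The log2 changes ran from -0.16 in EpH4 to 0.03 in mProx. At this brightness small changes of Tnfaip6 were not detectable.

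Promoter sequences are shown for Cd44, the bright member that was higher in both kidney lines, and for Tnfaip6, a dim one that differed little. They come from RefSeq on GRCm38.p6 and run from 250 bases before to 50 bases after the start of the gene, at chr2:102901616-102901915 on the minus strand for Cd44 and at chr2:52037863-52038162 on the plus strand for Tnfaip6. Capitals mark the letters of an AP-1 site (TGANTCA), a SMAD box (CAGAC) or a GC box (GGGCGG), each searched on both strands.
Cd44: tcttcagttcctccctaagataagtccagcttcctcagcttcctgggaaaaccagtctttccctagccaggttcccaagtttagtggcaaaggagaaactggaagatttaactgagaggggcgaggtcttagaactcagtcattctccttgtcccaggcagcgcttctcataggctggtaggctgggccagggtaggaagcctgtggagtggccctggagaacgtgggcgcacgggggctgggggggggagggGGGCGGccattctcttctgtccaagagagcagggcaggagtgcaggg
Tnfaip6: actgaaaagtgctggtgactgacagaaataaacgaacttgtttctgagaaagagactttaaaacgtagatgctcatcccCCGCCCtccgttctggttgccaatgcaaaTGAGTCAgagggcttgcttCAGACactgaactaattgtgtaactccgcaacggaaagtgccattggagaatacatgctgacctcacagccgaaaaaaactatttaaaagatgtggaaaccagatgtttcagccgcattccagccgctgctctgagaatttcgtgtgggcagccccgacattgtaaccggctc

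The Cd44 window held 1 GC box, starting 4 bases into the transcribed part, and no match to the other 2 motifs. The Tnfaip6 window held 1 of each, the AP-1 site starting at -142, the SMAD box at -123 and the GC box at -171 from the start. Of 27025 promoters of the same length, 7.93% held the AP-1 letters, 49.7% the SMAD box and 35.9% the GC box. A match describes these letters alone, and no match says only that the letters are not in this window. Windows of the same kind were found for Has1, Hyal1 and Hyal2 and not for Has2 and Has3.

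Beyond the members, 6 lists of other genes of the pathway were examined, with 70 genes, of which 65 had a probe set of their own and 50 passed the filter. In the limma test of the response over 4 lines, with the line as a block, 0 of these 50 genes passed an adjusted p of 0.05, and 15 were at an unadjusted p under 0.05. In the 3 lines without EpH4 0 of 50 passed and 13 were at an unadjusted p under 0.05, as were 1555 of all 12570 genes tested. In the difference of EpH4 from the other 3 lines 0 passed and 1 was at that unadjusted level. Among all 12570 genes tested, 0% passed in either direction in the 4-line response and in the difference (with 1453 and 427 genes at an unadjusted p under 0.05), and in the 3-line response 0.0398% rose and 0.0716% fell, which is 5 and 9 genes. These 14 calls became 0 without the filter, the intensity trend or the block, and between 9 (without mProx) and 88 (without NMuMG) with 1 line left out. At 2-fold, MCT held 4 higher genes of the 50 (8%, against 2.7% of all genes tested) and 1 lower (2%, against 2.75%). NMuMG held 4 higher (8%, against 3.1%) and 3 lower (6%, against 2%). mProx held 1 higher (2%, against 2.81%) and 2 lower (4%, against 2.54%), and EpH4 held 1 higher (2%, against 1.35%) and 0 lower (0%, against 1.06%).

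The 8 genes of precursor synthesis supply the UDP-sugars, and all 8 were tested, with 0 passing in the 4-line response and 3 at an unadjusted p under 0.05. Gfpt1, the rate-limiting enzyme of the hexosamine pathway that leads to UDP-N-acetylglucosamine, was at 9.62 stimulated and 11.04 resting in NMuMG, and at 9.59 and 10.32 in MCT. Its mean change over 4 lines was -0.60 ± 0.62 (SD, n = 4; limma adjusted p = 0.339). Thus in NMuMG, where Has2 was higher by 3.06, this precursor gene had a change of -1.42. Gfpt2, its paralogue, was named after its values were seen because it is the 1 gene of the list past 2-fold in MCT, at -1.51 with a dim stimulated value. Pgm3, which makes N-acetylglucosamine-phosphate, had a mean difference of 0.36 ± 0.19 over the 4 lines, Ugp2, which makes UDP-glucose, of -0.26 ± 0.36, and the salvage kinase gene Nagk of -0.27 ± 0.27 (SD, n = 4 each). The list's median change was 0.03, against 0.01 for all tested genes.

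Of 8 other genes of hyaluronan breakdown 7 had a probe set and 4 were tested, 0 of them passing and 3 at an unadjusted p under 0.05. Cemip, which encodes a hyaluronan-binding protein needed for its depolymerization in skin fibroblasts, was at 7.51 stimulated and 9.14 resting in NMuMG, a change of -1.63. In mProx it was at 6.41 and 6.58, and in EpH4 and MCT it was dim on all arrays. Its relative Cemip2 had changes of 0.62 in MCT, 0.58 in mProx, 0.21 in EpH4 and 0.10 in NMuMG, and of 0.35, 0.41, -0.08 and 0.49 in this order without quantile normalization. Hexa, a lysosomal hexosaminidase subunit that trims the fragments, had differences of -1.01 in mProx and -0.83 in NMuMG against -0.05 in MCT and 0.06 in EpH4, and Gusb, the lysosomal glucuronidase gene, a mean of 0.27 ± 0.14 over the 4 lines (SD, n = 4). The list's median change was -0.01.

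Of 7 other receptor genes 5 were tested and 0 passed, 0 were at an unadjusted p under 0.05, and 0 were past 2-fold in any line. Hmmr, encoding the hyaluronan receptor RHAMM, which also has a role at the mitotic spindle, had a mean difference of -0.16 ± 0.29 over the 4 lines. The scavenger receptor genes Stab1 and Stab2 had mean differences of 0.45 ± 0.59 and 0.19 ± 0.20, and Tlr4, a toll-like receptor reported to respond to hyaluronan fragments, had -0.29 ± 0.24 (SD, n = 4 each). The list's median change was -0.08.

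Of 15 genes of hyaluronan-binding matrix proteins 7 were tested and 0 passed, with 1 at an unadjusted p under 0.05. Vcan, encoding the large proteoglycan versican, was at 9.25 stimulated and 8.41 resting in NMuMG, 6.93 and 5.75 in MCT, 5.92 and 5.27 in mProx, and 4.99 and 4.50 in EpH4, where both arrays were dim. It was higher in 4 of 4 lines, under each of the 3 normalizations tried, by 0.79 ± 0.30 (SD, n = 4; limma adjusted p = 0.208). Ptx3, whose protein works with TSG-6 in the hyaluronan matrix around the oocyte, stood at 9.84 stimulated and 10.44 resting in EpH4 and was dim on both arrays of mProx and MCT. In NMuMG it was at 3.95 and 5.67. Among link protein genes Hapln3 had a mean difference of 0.42 ± 0.41 and Hapln4 of 0.17 ± 0.29 (SD, n = 4 each). Ncan, named after its values were seen as the second gene of this list past 2-fold in MCT, was higher by 1.10 there. The list's median change was 0.12.

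Of 12 genes of Cd44 partners, splicing and shedding, 10 had a probe set and 9 were tested, with 0 passing, 2 at an unadjusted p under 0.05 and 0 past 2-fold in any line. Ezrin and moesin link the Cd44 tail to actin. Msn, encoding moesin, was higher in 4 of 4 lines, though in EpH4 at -0.07 without quantile normalization, and its mean difference was 0.30 ± 0.19 (limma adjusted p = 0.232), and Ezr, encoding ezrin, had -0.21 ± 0.20 (SD, n = 4 each; limma adjusted p = 0.425). Nf2, encoding the related protein merlin, had -0.22 ± 0.26. Mmp14, a membrane protease that can shed Cd44, had differences of 0.92 in MCT and 0.52 in EpH4, against -0.02 in mProx and -0.06 in NMuMG. Without quantile normalization these were 0.63, 0.23, -0.16 and 0.31, so NMuMG was then above EpH4.

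Genes that build the sulfated glycosaminoglycans were examined as the nearest relatives of the synthases. Of 20 genes 18 had a probe set and 17 were tested, with 0 passing in the 4-line response, a median change of 0.20, and 6 at an unadjusted p under 0.05. Of the 24 genes named by rule from the 6 lists, 14 had a change of the other sign in 1 line without quantile normalization, the largest of these being 0.21 on the normalized scale. Csgalnact1, which starts chondroitin chains, was at 7.53 stimulated and 4.98 resting in MCT, 9.50 and 7.58 in NMuMG, and 5.41 and 3.89 in EpH4, but at 4.05 and 5.33 in mProx. It was thus higher in 3 lines and lower in mProx, and dim on 3 arrays. B4galt7, which adds the first galactose of the linker, was higher in 4 of 4 lines, by 0.85 ± 0.66, though in EpH4 at -0.13 without quantile normalization. Extl1, of the exostosin family, had a mean difference of 0.59 ± 0.49 (SD, n = 4 each). Chst11, a chondroitin sulfotransferase, was at 8.39 stimulated and 7.11 resting in mProx, 9.05 and 8.25 in MCT, and 9.99 and 8.93 in NMuMG, but at 4.79 and 5.33 in EpH4. Its mean change in the 3 lines was 1.05 ± 0.24 (SD, n = 3; limma adjusted p = 0.065), and the test of the difference from EpH4 did not pass either (adjusted p = 1.00). Xylt2, named after its values were seen as the fourth gene of this list past 2-fold in NMuMG, was higher by 1.19 there, over a dim resting value.

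**Figure D3:**
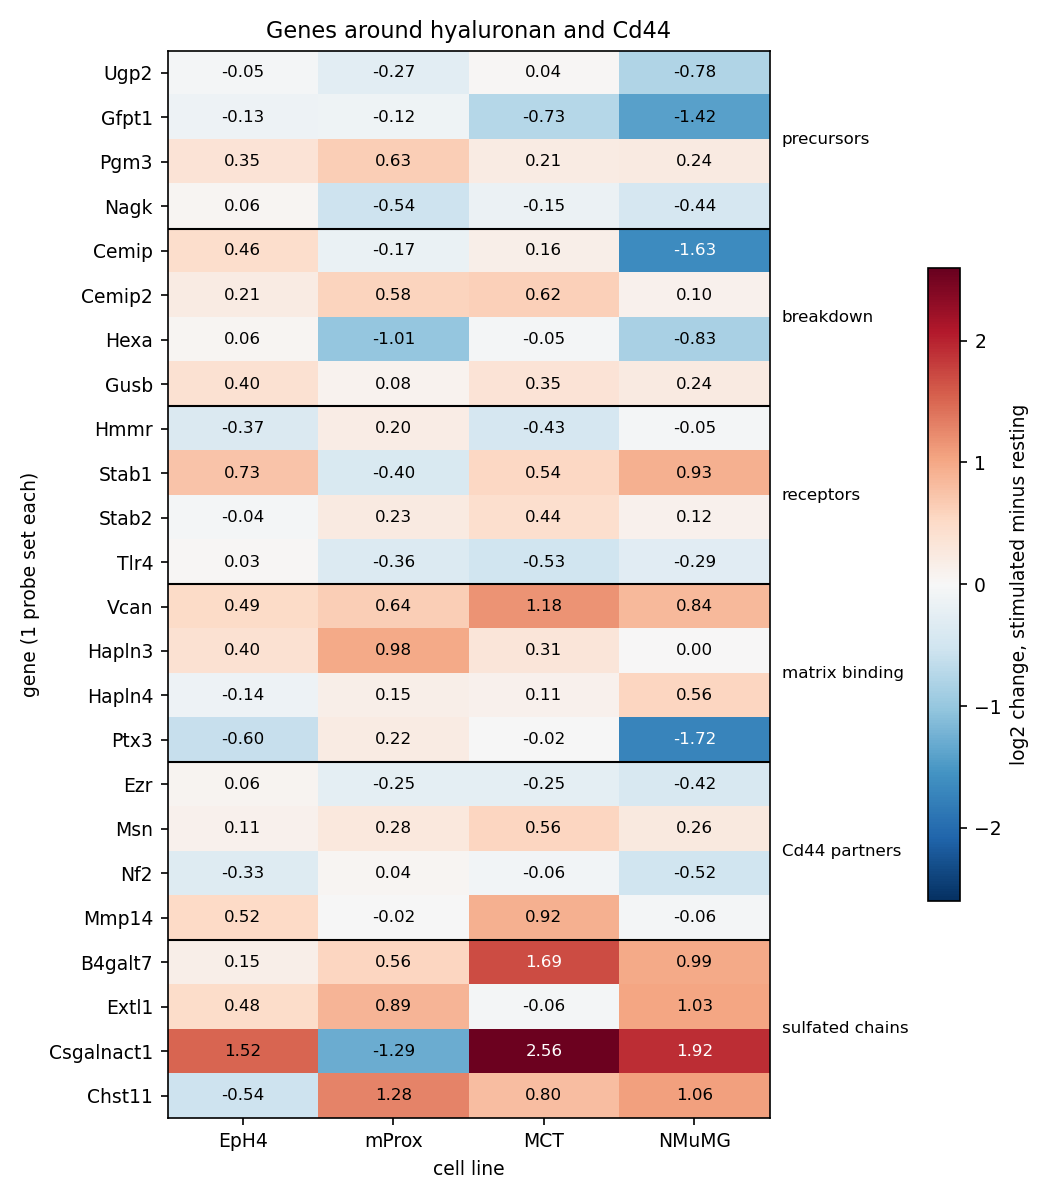
Log2 change (stimulated minus resting, colour and printed value) of 24 genes around hyaluronan and Cd44 (rows, grouped by list) in the 4 lines (columns), with 1 array per condition and line. Vcan, Msn and B4galt7 are above 0 in 4 of 4 lines, of which Msn and B4galt7 in EpH4 lie under 0 without quantile normalization, and Cemip, Ptx3 and Gfpt1 have their lowest values in NMuMG.

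The genes whose levels over the 8 arrays were most like those of a member were found by Pearson correlation among 12570 genes, using the probe set with the highest mean. These r values are descriptions over 4 lines with 2 arrays each. For Has2 they were Isg20l2 at r = 0.976, Tmem132a at 0.939 and Slc6a2 at 0.934. Their changes in MCT were 0.55, 0.62 and 0.61, against 4.31 for Has2. For Cd44 they were Mdm2 at 0.972, Fcgbp at 0.962 and Kdsr at 0.948, of which Fcgbp differed by 2.14 in mProx, 1.47 in MCT, 0.45 in EpH4 and -0.44 in NMuMG. For Hyal2 they were Gpr183 at 0.946, 1700025G04Rik at 0.904 and Yif1a at 0.888.

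The median signal per array ran from 41.5 to 59.6 on the deposited scale, and the labels and headers name no batch. Of 9 epithelial markers, 8 were at or above the filter on both arrays of EpH4, 6 in MCT and NMuMG and 4 in mProx, and Cdh1, encoding E-cadherin, was dim on all arrays of mProx and MCT, between 3.53 and 4.47. Summed over 9 epithelial markers the deposited signal was 3417.8 stimulated and 1544.7 resting in mProx, 7758.4 and 3860.2 in MCT, 18126.4 and 11641.9 in NMuMG, and 37643.6 and 37473.6 in EpH4. Single genes went both ways. Krt18 was higher after stimulation in each line, as at 10.34 stimulated and 9.01 resting in mProx. Ocln was lower in each, as at 6.82 and 7.33 in MCT. In NMuMG Cdh1 was at 10.06 and 10.69 and Krt19 at 8.52 and 9.11. The sums follow the brightest genes, on a scale without normalization. Summed over 5 measured kidney tubule markers the deposited signal was 2997.7 stimulated and 8358.7 resting in mProx and 1137.6 and 2692.2 in MCT. On the mammary arrays it was 97.6 to 181.1. Of these 5, Pax8 and Cdh16 were between 8.99 and 12.23 in mProx and MCT, whereas Hnf4a was between 5.29 and 6.10 there and no lower in the mammary lines, at 5.78 to 6.23. Emx2 was at 6.35 stimulated and 6.61 resting in MCT and at 6.91 and 6.22 in NMuMG, and Lhx1 was dim on 7 of 8 arrays. The epithelial sum was higher after stimulation in mProx, MCT and NMuMG, where Has2 was higher, and the kidney tubule sum was lower in mProx and MCT. On the normalized scale Cd44 was higher in mProx and MCT. It was also higher in EpH4, where the epithelial sum differed little, but near 0 or lower in NMuMG. The part of these sums in the changes of Has2 and Cd44 was not tested. The sum over 6 mammary markers was 2542.4 stimulated and 1738.2 resting in EpH4 but 192 and 116.4 in NMuMG, the lowest line. In the kidney lines it was 1490.7 and 907.1 in MCT and 600.7 and 161.2 in mProx. The sum thus did not separate the mammary from the kidney lines. Its brightest gene in EpH4 was Krt14, at 11.09 and 10.22, and in MCT Csn3, at 10.63 and 9.43. Elf5, a luminal transcription factor gene, was dim on all 8 arrays. The sum over 6 fibroblast markers ran from 125.1 to 349.3 stimulated and from 94.7 to 2061.7 resting, the highest being resting mProx, where Dcn was at 10.56, against 7.53 stimulated. In MCT that sum was 125.1 stimulated and 117.7 resting, with genes going both ways. Pdgfra was at 5.91 stimulated and 4.04 resting there, and Col3a1 at 5.25 and 5.91. The sums over 5 endothelial and 5 leukocyte markers stayed between 75.3 and 322.9 on every array, and Ptprc and Pecam1 were dim on all 8. Other genes of these lists were not dim throughout. Cd68 ran from 5.73 to 7.25 and Lyz2 from 5.52 to 6.54, above the filter on every array. Kdr ran from 5.19 to 6.77.

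**Figure D4:**
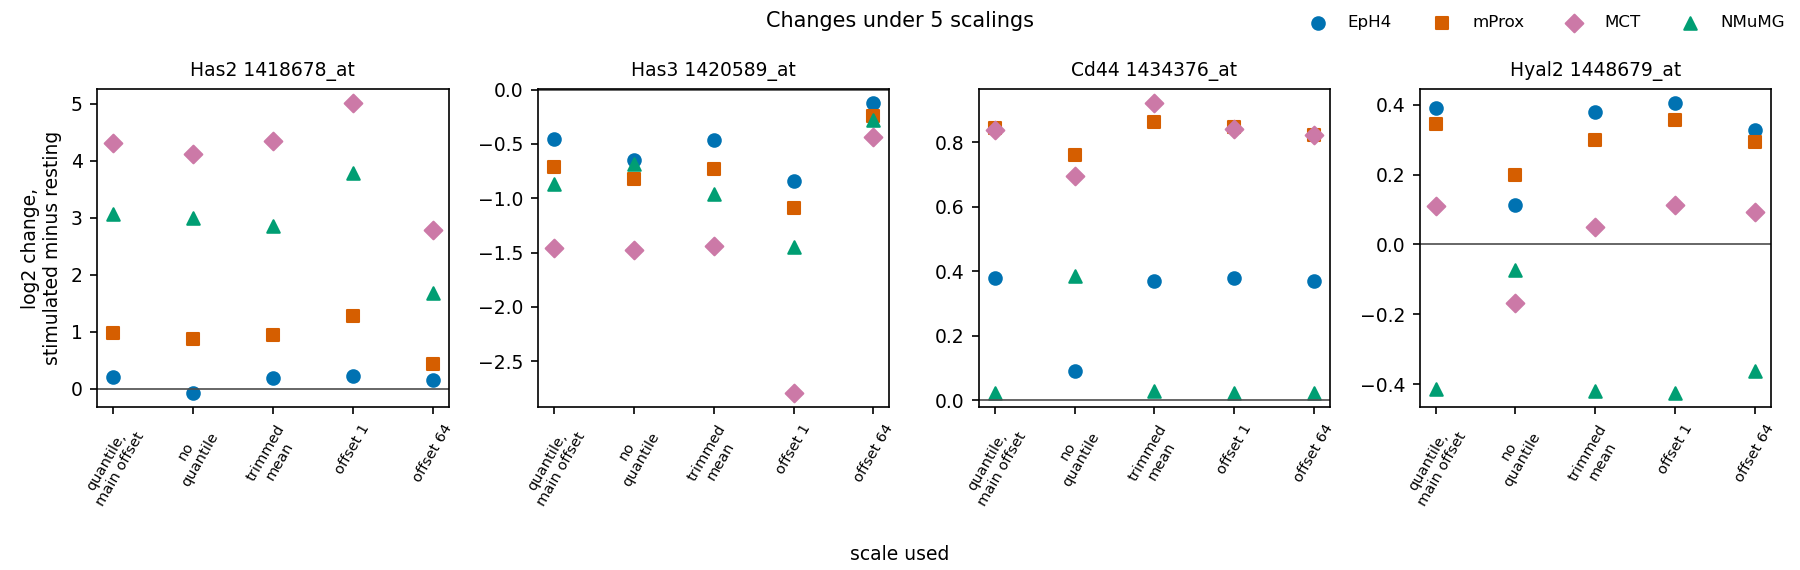
Log2 change (stimulated minus resting, y axis) of 1 probe set each of Has2, Has3, Cd44 and Hyal2 in the 4 lines under the scale used here and 4 others (x axis). Has2 in MCT lies between 2.79 and 5.00, the Has3 points lie under 0 under each scale, and Hyal2 in MCT crosses 0 without quantile normalization. Has3 was dim on every array, and each scale starts from the same signals, so its common sign over scales is no further evidence of a direction.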

How the data were processed

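Total RNA was biotin-labelled and hybridised to the Affymetrix whole-genome mouse array, per the labels' protocols. The authors deposited linear intensities, with a single signal for each probe set on each array, made with MAS5 per the submitters' processing notes, which name neither a version nor a scaling target. Trimmed array means (2% off each end) lay between 207.4 and 375.0, and no detection calls entered.

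From the deposited intensities, 64 control probe sets were dropped, 10.6 was added (the positive signals' 25th percentile), and log2 values were quantile-normalized, because array medians differed by 0.43, above a limit of 0.3. This removes any change in the overall distribution. Symbols came from the platform annotation, of which 34945 probe sets have 1 symbol, 932 several and 9160 none, and 34741 were matched through Entrez identifiers to the GRCm38.p6 gene table. Each of 18193 genes was represented by its brightest probe set, avoiding those ending in _x_at or _s_at where another existed. The 12570 genes with a mean at or above the 40th percentile of probe sets were fitted with limma 3.58.1 in R 4.3.3 (intensity trend, Benjamini-Hochberg adjustment). The code of the fit was checked on simulated data with changes larger than those of any list gene. That check does not tell how well changes of the sizes reported here would be found. The line is the replicate and the pair, taken from the line names. The 2 arrays of a line deviated together from the group means, with correlations of 0.905, 0.826, 0.811 and 0.874. The labels do not tell how many cultures each array holds. The p-values therefore rest on how the changes differed between lines, from which spread between cultures and arrays cannot be separated. They also rest on limma's use of the spread of other genes, and the number of arrays limits the precision.

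The members, lists and tests were chosen with earlier results of these data known. Named genes are all members, up to 4 genes per list with the largest mean change, any list gene past the threshold, and the 3 genes most correlated with each tested member. Alternatives were other normalizations, offsets of 1 and 64, no filter, no trend, no block, all probe sets averaged, and each line left out.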

Additional observations from a re-analysis of the deposited data

Results flagged for a closer look

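Of 30 sets of 4 values, namely the stimulated levels, the resting levels and the changes of each of the 10 member probe sets over the 4 lines, 2 had a value whose gap to the nearest of the others passed Dixon's 95% critical value. Chance gives about 1 in 20, and since the members were chosen with these values in view, this is a description and not a test. The first was the resting level of Has2 (1418678_at) in EpH4, at 6.92, against 4.50 to 4.89 in the other 3 lines, which were dim, a gap of 0.84 of the whole range. The second was the change of Tnfaip6 in EpH4, at -0.16, against 0.00 to 0.03 in the others, a small difference on a probe set that was dim on 5 of 8 arrays. The resting level of the second Has2 probe set in EpH4, 6.37, did not pass.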

How the results depend on the processing

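The count of 0 genes in the 4-line response was 236 without quantile normalization, 11 with arrays scaled to a common trimmed mean, 1 with an offset of 1 and 8 with an offset of 64, and 0 to 14 with a line left out, 14 being without EpH4. The count of 14 in the 3 lines was 210 without quantile normalization, 2 with an offset of 64, 0 with no filter, 0 with no intensity trend, 0 with no block for the line and 8 with all probe sets averaged. It ran from 9 without mProx to 88 without NMuMG. The count of 0 in the difference of EpH4 was 4 without quantile normalization, and the count of 0 list genes was 1 there in both responses, Csgalnact1 in the 4 lines and Chst11 in the 3. In those 3 fits without quantile normalization limma's prior degrees of freedom were infinite, against 4.88 to 5.00 with it, so a gene's own spread between lines did not enter the p-values, and Csgalnact1 was called although lower in mProx. Of 40 member changes, 10 were past 2-fold, against 16 with an offset of 1, 6 with an offset of 64 and 5 to 10 with a line left out, 5 being without MCT. These 10 include Has1 and Has3 in MCT, which lay under the filter. Over all 23253 probe sets at or above it, 1.35% (EpH4) to 3.05% (NMuMG) were at least 2-fold higher. At least 2-fold lower were 1.36% (EpH4) to 2.72% (MCT). No share was counted for probe sets under the filter, and nothing is read from the member counts. Of 200 list changes, 16 were past 2-fold, against 25 with an offset of 1, 6 with an offset of 64 and 9 to 15 with a line left out, 9 being without NMuMG. Has2 in MCT was higher by 2.79 to 5.00 on 1418678_at over 4 scalings and offsets, and in mProx by 0.43 to 1.29. No member change past 2-fold turned its sign. Smaller ones did in 9 pairs of a change and a setting, among them Has2 in EpH4 at -0.07 and -0.09 without quantile normalization. Tnfaip6 in mProx enters these 9 both without quantile normalization and with the trimmed mean. The difference could not be fitted without EpH4. Why counts moved was not tested.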

Other observations

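Esrp1 and Esrp2 encode splicing factors known to favour epithelial Cd44 variants. They are members of the list of Cd44 partners and were named after their values were seen. Esrp1 was at 12.10 stimulated and 12.02 resting in EpH4, 7.52 and 6.55 in MCT, 3.93 and 4.43 in mProx, and 3.64 and 4.51 in NMuMG, so it was dim in mProx and NMuMG. Esrp2 was at 8.59 and 8.43 in EpH4, 7.44 and 7.24 in MCT, 6.13 and 6.12 in mProx, and 6.50 and 6.36 in NMuMG. Both were highest in EpH4, followed by MCT, the lines with the smallest and the largest Has2 change. A link with Has2 was not tested. Which Cd44 variants the lines carry was not measured by these probe sets as far as the sources used here tell.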
